A study of Mus musculus with 15 samples.

Results

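Wnt signalling in the ventilated mouse lung was examined through 42 genes: 16 Wnt ligands, 10 Frizzled receptors, the coreceptors Lrp5 and Lrp6, 9 secreted antagonists, 4 feedback genes of the pathway and Ctnnb1, which encodes beta-catenin. The genes were chosen by their place in the pathway, with earlier results of these data known. Each was read from the array row that carried no other gene symbol, taking the brightest row where several did. All 42 of 42 genes were measured, of 19934 genes with such a row. Whole-lobe RNA was hybridised from male C57BL/6N mice of 24 to 26 g body weight, 1 array per mouse and 5 mice in each of 3 groups. All animals received an arterial line and a tracheal tube under ketamine (90 mg/kg) and acepromazine (1 mg/kg). Controls were left to breathe synthetic air on their own for 6 h. Air ventilated mice were given synthetic air by a rodent ventilator over the same time, and 80 ppm H2S ventilated mice were given it with 80 ppm hydrogen sulfide added, both with breaths of 12 ml/kg and an end-expiratory pressure of 2 cm H2O. The comparisons ask what mechanical ventilation does to these genes, and whether inhaled H2S changes it. A group of mice that breathed H2S spontaneously was not analysed here, so H2S in spontaneously breathing mice is not covered.

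Wnt proteins are secreted lipid-modified ligands that bind Frizzled receptors. Together with an Lrp5 or Lrp6 coreceptor they stop the destruction complex from degrading beta-catenin, which then acts with TCF/LEF factors on target genes, while other Wnt signals steer cell polarity and movement without beta-catenin. Secreted Frizzled-related proteins, Dickkopf proteins and Wif1 act outside the cell on ligands or coreceptors, and Axin2, Nkd1, Rnf43 and Znrf3 restrain the pathway inside the cell or at its surface. In the lung the pathway is known for its part in lung bud formation, vascular and smooth muscle development and alveolar repair.

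The promoters of 3 genes that were lower than control in at least 1 ventilated group are shown as examples: the ligands Wnt3a and Wnt7a and the receptor Fzd1. They moved in the same direction, and their windows lie outside the annotated gene. Other lower genes with a window, among them Wnt2 and Sfrp2, are not shown. Dkk1 is added for contrast as a gene that did not pass the test and whose window holds the TCF/LEF core. Each window is the 250 bases 5' of the RefSeq start on GRCm38.p6, ending at the base before the annotated gene, at chr11:59290752-59291001 (minus strand) for Wnt3a, chr6:91411354-91411603 (minus strand) for Wnt7a, chr5:4758217-4758466 (minus strand) for Fzd1 and chr19:30549497-30549746 (minus strand) for Dkk1. Capitals mark the TCF/LEF core, searched on both strands in the form CTTTGAA, in the form with another last base CTTTGAT, and in the matching forms whose sixth base differs, CTTTGTA as well as the form CTTTGTT.
Wnt3a: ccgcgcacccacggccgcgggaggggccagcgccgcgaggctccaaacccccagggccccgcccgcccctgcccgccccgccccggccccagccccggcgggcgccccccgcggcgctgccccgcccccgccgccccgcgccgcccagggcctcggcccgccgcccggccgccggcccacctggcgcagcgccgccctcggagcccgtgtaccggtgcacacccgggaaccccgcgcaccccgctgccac
Wnt7a: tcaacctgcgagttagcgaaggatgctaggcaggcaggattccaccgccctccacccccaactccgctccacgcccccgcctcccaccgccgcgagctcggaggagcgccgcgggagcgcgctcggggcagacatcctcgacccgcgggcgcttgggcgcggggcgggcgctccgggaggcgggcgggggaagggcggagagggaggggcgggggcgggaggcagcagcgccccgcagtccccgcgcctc
Fzd1: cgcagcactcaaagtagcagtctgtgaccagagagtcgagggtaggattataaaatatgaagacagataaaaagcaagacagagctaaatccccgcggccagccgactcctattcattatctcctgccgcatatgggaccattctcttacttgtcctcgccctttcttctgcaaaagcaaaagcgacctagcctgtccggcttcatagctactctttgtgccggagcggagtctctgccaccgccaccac
Dkk1: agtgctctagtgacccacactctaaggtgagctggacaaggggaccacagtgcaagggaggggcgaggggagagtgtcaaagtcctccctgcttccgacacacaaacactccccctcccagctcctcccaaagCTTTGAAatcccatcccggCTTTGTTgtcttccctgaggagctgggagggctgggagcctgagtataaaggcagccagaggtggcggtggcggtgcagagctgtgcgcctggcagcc
The Dkk1 window held 2 matches, and the other windows shown held none. Of the 42 genes, 29 had 34 windows in the RefSeq table. The core was found in 4 of these 34 windows (11.76%), those of Wnt5b, Wnt11, Fzd7 and Dkk1, against 14.84% of 32851 windows of all genes. None of these 4 genes passed the test in any comparison. Wnt5a, Fzd2, Lrp5 and Znrf3, which did pass, had no window, so the core could not be searched there. Whether the core is rarer in called genes was not tested. The cyclic AMP response element TGACGTCA, searched on both strands, was in 0 of the 34 and in 1.546% of all windows. A match describes letters in a window and says nothing about binding.

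The arrays were alike in brightness and shape. Median intensities lay between 179.08 and 187.45 over the 15 arrays, and arrays of a group correlated at r = 0.984 to 0.994 over all 28361 rows. Alveolar type II markers such as surfactant genes were bright in every mouse, with summed intensities of 53787 to 56522, as the labelled tissue requires. The mouse labels carry numbers of 1 to 12 in 3 mice of each group and 20 to 28 in the other 2, with a meaning not given in the sources used here. Between these sets 1775 rows differed at an adjusted p under 0.05, among them Wnt3 and Fzd10, for which the mice numbered 20 to 28 differed from the others by -0.37 and -0.39 on the log2 scale. Results are therefore given for each set as well.

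In air ventilated mice 6 of the 42 genes were lower than in controls and 1 was higher at an adjusted p under 0.05 (limma, adjusted over all rows). That is 16.7% of the members, against 3.44% of all rows, of which 1.89% were lower and 1.56% higher. Because the members were chosen with earlier results of these data known, such shares are description and no test of the set. The count was 3 to 8 in the fits that left out 1 mouse, with 3 without control 5_1 or 7_9 or air ventilated 11_6 or 12_10, and 4 without control 13_25 or 6_5 or air ventilated 35_26 or 6_2. The lower genes were Wnt2, Wnt5a, Wnt7a, Fzd1, Sfrp2 and Znrf3, and the higher one was Nkd1. After ventilation with 80 ppm H2S, 6 genes were lower (Wnt2, Wnt3a, Wnt5a, Wnt7a, Fzd2 and Sfrp2) and 2 were higher (Lrp5 and Nkd1), 19.0% of the members against 7.86% of all rows (3.93% lower, 3.92% higher). Wnt2, Wnt5a, Wnt7a, Sfrp2 and Nkd1 passed in both comparisons, which share the 5 control mice. Passing in 1 comparison alone does not show that the ventilated groups differed, which is tested below for every gene. Wnt2, Fzd2 and Sfrp2 are among the genes the study itself listed from these same arrays, so their calls are no independent evidence. The tissue is a whole lobe, in which fewer cells of a type and less RNA per cell cannot be told apart.

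**Figure D1:**
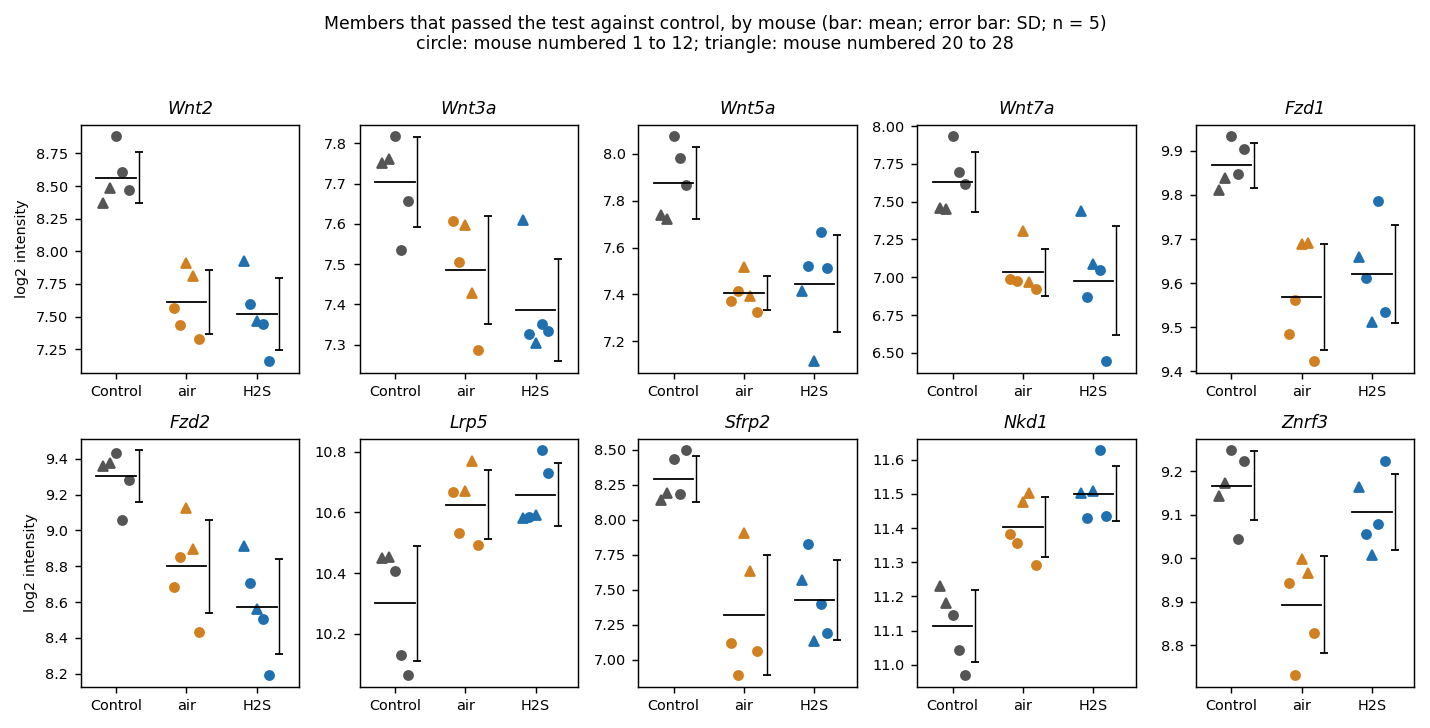
Log2 intensity (y axis) of the 10 genes that passed the test against control in at least 1 comparison, in each of 5 control, 5 air ventilated and 5 H2S ventilated mice (x axis), with circles for mice numbered 1 to 12, triangles for 20 to 28, the mean as a bar and the SD as an error bar. For Wnt2, Wnt5a, Wnt7a and Sfrp2 every ventilated mouse lay below every control mouse, and for Lrp5 and Nkd1 every ventilated mouse lay above.

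Among the ligands, Wnt2, Wnt5a and Wnt7a were lower in both ventilated groups. Wnt2, a ligand of the lung mesenchyme with a part in early lung development, had intensities of 331.06, 355.22, 358.44, 390.45 and 472.38 in the control mice. They were 160.44, 173.52, 189.72, 224.25 and 240.33 after air ventilation and 142.77, 174.36, 176.99, 193.73 and 243.22 after H2S ventilation. Both ventilated groups lay wholly below the controls and overlapped each other. The log2 fold change of Wnt2 was -0.95 ± 0.14 (SE, n = 5 per group, adjusted p = 0.00267) with air and -1.05 ± 0.14 (adjusted p = 0.000518) with H2S, which are folds of 1.94 and 2.06 downward.

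Wnt5a, a ligand best known for signalling without beta-catenin in lung and airway growth, read 211.03, 213.47, 233.37, 252.66 and 269.81 in controls. The air ventilated mice read 160.19, 165.89, 168.29, 170.68 and 183.42, and the H2S ventilated mice 138.63, 170.84, 182.54, 183.52 and 203.35. No ventilated mouse reached the lowest control mouse. The change was -0.47 ± 0.099 (SE, adjusted p = 0.0133) with air and -0.43 ± 0.099 (adjusted p = 0.0127) with H2S on the log2 scale.

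Wnt7a, which patterns limb and reproductive tract epithelium in development, read 174.88, 175.84, 195.91, 207.50 and 244.70 in controls. It read 121.06, 125.29, 125.98, 127.05 and 158.54 with air and 87.07, 117.04, 132.25, 136.12 and 173.55 with H2S. The groups were separate from control, but the brightest H2S ventilated mouse lay just under the dimmest control mouse. The change was -0.60 ± 0.15 (SE, adjusted p = 0.036) with air and -0.65 ± 0.15 (adjusted p = 0.0126) with H2S. The air call was lost in 7 of the 15 fits that left out 1 mouse, at adjusted p of 0.0806 to 0.0942, namely without control 5_1, 7_9 or 6_5 or air ventilated 11_6, 12_10, 35_26 or 6_2.

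Wnt3a, the ligand most used to activate beta-catenin in culture, passed with H2S. Control mice read 185.40, 201.75, 215.52, 216.81 and 225.74. H2S ventilated mice read 158.08, 160.49, 161.47, 163.20 and 195.34, and air ventilated mice 156.01, 172.34, 181.74, 193.62 and 195.12. The dimmest control mouse fell within both ventilated ranges. The change was -0.32 ± 0.085 (SE, adjusted p = 0.0296) with H2S and -0.22 (adjusted p = 0.217) with air. The call with H2S was lost in 8 of 15 fits without 1 mouse, at adjusted p of 0.0521 to 0.0732 (without control 12_21, 13_25, 5_1 or 7_9, or H2S ventilated 9_12, 27_28, 4_8 or 1_4).

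The other 12 ligands did not pass either comparison. They were Wnt2b, Wnt3, Wnt4, Wnt5b, Wnt6, Wnt7b, Wnt9a, Wnt9b, Wnt10a, Wnt10b, Wnt11 and Wnt16. Their fold changes ran from -0.30 (Wnt10b) to 0.19 (Wnt7b) with air and from -0.29 (Wnt10b) to 0.26 (Wnt2b) with H2S on the log2 scale. Wnt10b read 120.10 to 141.96 in controls and 87.61 to 116.11 with air, without overlap, and 86.73 to 124.81 with H2S, with overlap. Wnt4 was the one gene with a second row, which gave -0.29 with air and -0.10 with H2S, neither past the test.

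Of the 10 Frizzled receptors, the seven-pass membrane proteins that bind Wnts, Fzd1 was lower with air and Fzd2 with H2S. Fzd2 read 533.14, 623.11, 656.70, 664.96 and 690.10 in controls. It read 345.13, 411.73, 462.17, 477.03 and 559.31 with air and 292.10, 363.21, 377.43, 417.54 and 482.34 with H2S. The H2S group lay below all controls, and 1 air ventilated mouse lay within the control range. The log2 change was -0.73 ± 0.14 (SE, adjusted p = 0.00375) with H2S and -0.50 ± 0.14 (adjusted p = 0.056) with air. With the number set of the labels as a block, Fzd2 passed with air too, at an adjusted p of 0.0239. The air value also passed in 3 of 15 fits without 1 mouse (air ventilated 34_22, H2S ventilated 9_12 or 15_20).

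Fzd1 read 898.56, 914.98, 920.95, 958.05 and 977.91 in controls. It read 686.38, 716.06, 755.55, 825.83 and 825.95 with air and 730.18, 741.61, 781.78, 808.77 and 883.54 with H2S. All 10 ventilated mice lay below the controls. The change was -0.30 ± 0.074 (SE, adjusted p = 0.036) with air and -0.25 ± 0.074 (adjusted p = 0.0539) with H2S. The air call was lost in 8 of the 15 fits without 1 mouse (control 13_25, 5_1, 7_9 or 6_5, air ventilated 11_6, 12_10 or 6_2, or H2S ventilated 1_4), and the H2S value passed without H2S ventilated 4_8, at an adjusted p of 0.0289. With the number set as a block the H2S value passed at 0.0495.

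The other 8 Frizzled receptors did not pass, namely Fzd3, Fzd4, Fzd5, Fzd6, Fzd7, Fzd8, Fzd9 and Fzd10. Their changes ran from -0.14 (Fzd10) to 0.25 (Fzd4) with air and from -0.18 (Fzd3) to 0.21 (Fzd4) with H2S. Fzd4, a receptor of blood vessel cells that also binds norrin, had the opposite sign to Fzd1 and Fzd2. It read 1996 to 2118 in controls, 2139 to 2855 with air and 2172 to 2576 with H2S, so that every ventilated mouse lay above every control mouse, at adjusted p of 0.143 and 0.16.

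Lrp5, one of the coreceptors that pass the Wnt signal to beta-catenin, was higher with H2S. It read 1070, 1121, 1359, 1399 and 1402 in controls, 1441, 1480, 1625, 1630 and 1744 with air and 1533, 1536, 1542, 1698 and 1789 with H2S. All ventilated mice were brighter than all controls. The change was 0.36 ± 0.092 (SE, adjusted p = 0.0247) with H2S and 0.32 ± 0.092 (adjusted p = 0.0693) with air. The H2S call was lost in 4 of 15 fits (without control 7_9 or 6_5, or H2S ventilated 9_12 or 4_8). Lrp6, the other coreceptor, read 849 to 990.48 in controls, 869.73 to 1082 with air and 930.54 to 1108 with H2S. Its changes of 0.08 and 0.18 did not pass.

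Of the 9 secreted antagonists only Sfrp2 passed, in both comparisons. Sfrp2 encodes a secreted Frizzled-related protein, which carries a Frizzled-like domain and binds Wnts outside the cell. Control mice read 282.06, 290.00, 292.75, 346.06 and 361.12. Air ventilated mice read 118.35, 133.69, 138.80, 198.37 and 239.17, and H2S ventilated mice 140.63, 146.35, 168.80, 190.03 and 227.37. The ventilated groups overlapped each other and not the controls. The log2 change was -0.97 ± 0.18 (SE, adjusted p = 0.00687) with air and -0.86 ± 0.18 (adjusted p = 0.00662) with H2S, folds of 1.96 and 1.82 downward.

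The other 8 antagonists (Dkk1, Dkk2, Dkk3, Sfrp1, Sfrp4, Sfrp5, Wif1 and Frzb) did not pass. Their changes ran from -0.31 (Sfrp4) to 0.24 (Frzb) with air and from -0.23 (Sfrp4) to 0.40 (Frzb) with H2S. Dkk3, a divergent member of the Dickkopf family, read 536.56 to 639.06 in controls, 435.41 to 541.51 with air and 437.61 to 534.77 with H2S. Only the H2S group was wholly below the controls. Frzb, another Frizzled-related protein, had an adjusted p of 0.0561 with H2S, and passed as higher at 0.0332 with the number set as a block and at 0.022 without H2S ventilated 27_28. Frzb and Wnt3 were the 2 members whose rows lay in the dimmest 25% of all rows.

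Of the feedback genes, Nkd1 was higher in both ventilated groups. Nkd1 read 2004, 2111, 2264, 2321 and 2403 in controls. It read 2507, 2620, 2672, 2852 and 2905 with air and 2760, 2768, 2901, 2914 and 3165 with H2S. Every ventilated mouse lay above every control mouse. The change was 0.29 ± 0.072 (SE, adjusted p = 0.035) with air and 0.39 ± 0.072 (adjusted p = 0.00346) with H2S. The air call was lost in 8 of 15 fits without 1 mouse (control 13_25, 5_1, 7_9 or 6_5, or air ventilated 11_6, 12_10, 35_26 or 34_22), and the H2S call in none.

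Znrf3, a membrane ubiquitin ligase that removes Frizzled receptors from the surface, was lower with air. It read 527.97, 565.26, 576.91, 597.57 and 607.96 in controls, 424.68, 454.70, 491.74, 500.13 and 510.97 with air and 514.37, 531.88, 540.90, 573.62 and 597.96 with H2S. The air ventilated mice lay below all other mice, and the H2S ventilated mice overlapped the controls. The change was -0.27 ± 0.072 (SE, adjusted p = 0.0487) with air and -0.06 ± 0.072 (adjusted p = 0.735) with H2S. The air call held in only 3 of 15 fits without 1 mouse, those without control 6_5 or air ventilated 34_22 or H2S ventilated 9_12.

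Axin2, a scaffold of the destruction complex that is widely used as a readout of beta-catenin activity, did not pass. It read 321.20 to 376.18 in controls, 308.80 to 367.74 with air and 322.84 to 339.28 with H2S. The changes were 0.03 and -0.03 ± 0.068 (SE), with 95% confidence intervals of -0.12 to 0.17 and -0.18 to 0.11. Rnf43, a relative of Znrf3, and Ctnnb1 did not pass, with changes of -0.18 and -0.16 with air and -0.16 and -0.11 with H2S. The Ctnnb1 row read 5145 to 5745 in controls and 4620 to 5005 with air, without overlap, and 4786 to 5337 with H2S.

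**Figure D2:**
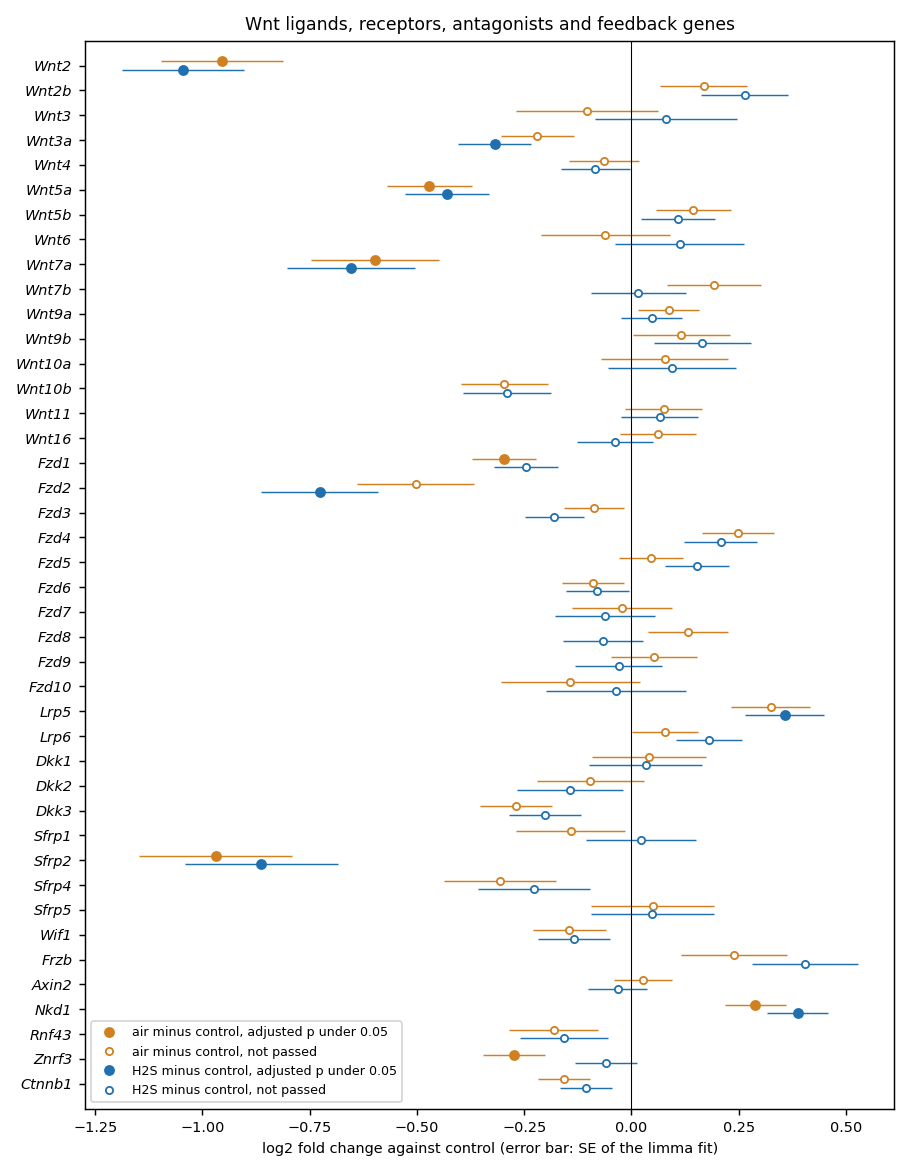
Log2 fold change against control (x axis, error bars are the SE of the limma fit) of the 42 genes (y axis), for air ventilated mice in orange and H2S ventilated mice in blue, with filled points for an adjusted p under 0.05. Wnt2 and Sfrp2 lay farthest from 0, near -1 in both comparisons, and most genes lay within 0.3 of 0.

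Over all 42 genes the median log2 change was -0.06 with air and -0.04 with H2S, against 0.01 and 0.00 over all rows. By the stricter thresholds of the study's methods (p of at most 0.005, false discovery rate of at most 10% and at least 1.7-fold), Wnt2 and Sfrp2 were the members called in each comparison, both lower, against 0.617% of all rows called lower with air and 0.790% with H2S. Groups did not overlap with control for 11 members with air (3 above and 8 below, against 5.55% of all rows, 2.65% above and 2.90% below) and for 10 with H2S (3 above and 7 below, against 8.20% of all rows, 4.11% above and 4.09% below).

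The direct comparison of the ventilated groups called none of the 42 genes (limma, lowest adjusted p = 0.575), against 0.0776% of all rows. At an unadjusted p under 0.05 there were 2 members, Znrf3 and Fzd8, against 5.68% of all rows, and the CyberT test called 0 of 42 after adjustment. The largest difference was that of Fzd2, at -0.22 (95% confidence interval -0.51 to 0.07), and Znrf3 differed by 0.21 (0.06 to 0.37). Znrf3 was also the one member whose ventilated groups did not overlap, with H2S above air, against 1.20% of all rows (0.691% with H2S above). For the genes that passed in both comparisons against control, the difference of H2S minus air was -0.09 ± 0.14 (SE) for Wnt2, 0.04 ± 0.099 for Wnt5a, -0.05 ± 0.15 for Wnt7a, 0.11 ± 0.18 for Sfrp2 and 0.10 ± 0.072 for Nkd1. For 40 of the 42 genes the interval lay within ±0.5 on the log2 scale, and the outermost bounds were -0.51 (Fzd2) and 0.53 (Wnt3). These intervals are not adjusted for the number of rows and are not a limit of detection. Differences between the ventilated groups may have been missed with 5 mice per group.

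**Figure D3:**
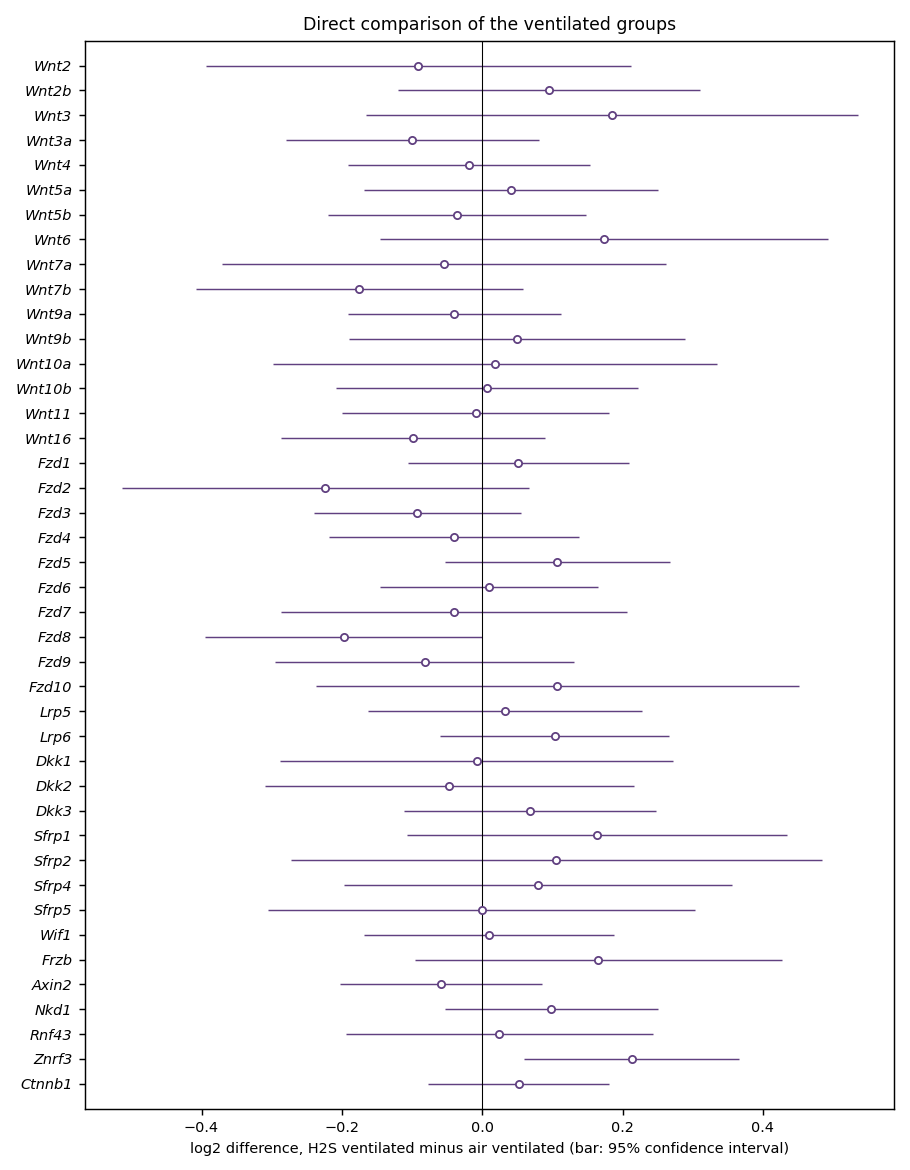
Log2 difference of 80 ppm H2S ventilated minus air ventilated mice (x axis) with its 95% confidence interval for the 42 genes (y axis), from the limma fit with 5 mice per group. The points lay between -0.22 (Fzd2) and 0.21 (Znrf3), and none passed the test after adjustment.

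Within each set of label numbers the called genes kept their sign, in 7 of 7 with air and 8 of 8 with H2S. The changes were smaller in the mice numbered 20 to 28 for all 7 with air and for 7 of 8 with H2S, Wnt5a being the exception. Wnt2 changed by -1.21 with air and -1.25 with H2S in mice 1 to 12, and by -0.57 and -0.73 in mice 20 to 28. Sfrp2 changed by -1.35 and -0.90 in mice 1 to 12, and by -0.40 and -0.81 in mice 20 to 28. Nkd1 changed by 0.29 and 0.45 in mice 1 to 12, and by 0.29 and 0.30 in mice 20 to 28. Alone, the mice numbered 1 to 12 (3 per group) called Wnt2, Wnt5a, Wnt7a and Sfrp2 with air and Wnt2, Wnt7a, Fzd2, Lrp5, Sfrp2 and Nkd1 with H2S. The mice numbered 20 to 28 (2 per group) called none, with lowest adjusted p of 0.783 and 0.353. The share of all rows called within each set is not given here, so these counts may not be particular to the members. Whether the changes differ between the sets was not tested.

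**Figure D4:**
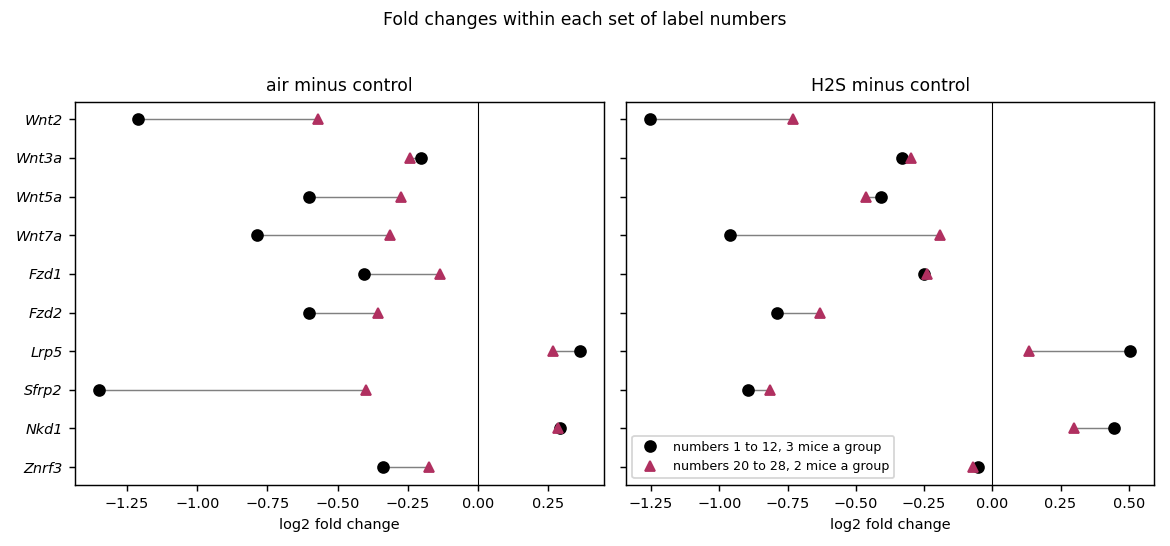
Log2 fold change against control (x axis) of the 10 called genes (y axis) computed within the mice numbered 1 to 12 (circles, 3 per group) and 20 to 28 (triangles, 2 per group), with air ventilation on the left and H2S ventilation on the right. Each gene had the same sign in both sets, and Wnt2 and Sfrp2 with air moved from -1.21 and -1.35 to -0.57 and -0.40.

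Of 85 further pathway genes listed, 83 were measured. With air 2 were higher and 2 lower (4.82%, against 3.44% of all rows), and with H2S 6 were higher and 7 lower (15.7%, against 7.86%). Tle1, a corepressor that binds TCF/LEF factors, was higher in both, from 480.75 to 650.48 in controls to 740.68 to 1017 with air and 742.26 to 866.84 with H2S, without overlap. Its log2 changes were 0.60 ± 0.095 (SE, adjusted p = 0.00327) and 0.49 ± 0.095 (adjusted p = 0.0045), and the other 14 TCF/LEF factors and nuclear partners did not pass.

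Of 15 other genes known as beta-catenin targets, Bmp4 was higher and Tnfrsf19 and Ccn5 lower with air (20%, against 3.44% of all rows). With H2S 3 were higher (Myc, Nkd2 and Bmp4) and 3 lower (Tnfrsf19, Lgr5 and Ccn5), which is 40% against 7.86% of all rows. Bmp4 and Ccn5 are named after their values were seen. Tnfrsf19, a receptor of the TNF family, fell by 0.68 with air and 0.91 with H2S on the log2 scale, and the matricellular gene Ccn5 fell by 0.82 and 0.95. Bmp4, a ligand of the BMP pathway, rose by 0.28 and 0.31. These genes did not move in 1 direction. Myc, Nkd2, Tnfrsf19 and Ccn5 (as Wisp2) are also among those the study listed from these arrays, so their calls are no independent evidence. Myc, a transcription factor of growth and early response, read 261.17 to 398.38 in controls, 350.89 to 530.42 with air and 532.50 to 966.41 with H2S. It rose by 1.34 ± 0.17 (SE, adjusted p = 0.000262) with H2S, against 0.53 (adjusted p = 0.107) with air, and the difference of 0.81 between ventilated groups had an adjusted p of 0.12. That difference passed with array weights, with the number set as a block and with CyberT, which made more false calls than limma on simulated data. Nkd2, the relative of Nkd1, rose by 1.01 ± 0.18 (SE, adjusted p = 0.00262) with H2S, against 0.53 (adjusted p = 0.139) with air. Between the ventilated groups 0 of the 83 genes passed in limma, and 3 had an unadjusted p under 0.05.

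In the other parts of the pathway named below no gene passed with air, against 3.44% of all rows. With H2S 14.3%, 6.25%, 11.8% and 17.6% of the lists passed, in the order given, against 7.86% of all rows. None of these genes passed between the ventilated groups. Of 7 R-spondins and Lgr receptors, which strengthen Wnt signals, Lgr5, also counted among the targets above, was lower (-0.41 ± 0.085 SE). Of 16 genes for Wnt secretion and extracellular binding, Tspan12, a partner of Fzd4, was lower (-0.48 ± 0.11 SE). Of 17 genes of the destruction complex and Dishevelled, the kinase Csnk1e was higher (0.34 ± 0.063 SE) and Btrc, which marks beta-catenin for degradation, was lower (-0.28 ± 0.068 SE). Of 17 genes of polarity and signalling without beta-catenin, Ror1, a Wnt5a receptor, was higher (0.32 ± 0.077 SE) and the planar polarity genes Vangl1 (-0.39 ± 0.094 SE) and Vangl2 (-0.31 ± 0.086 SE) were lower. All 7 had the same sign with air and did not pass there.

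**Figure D5:**
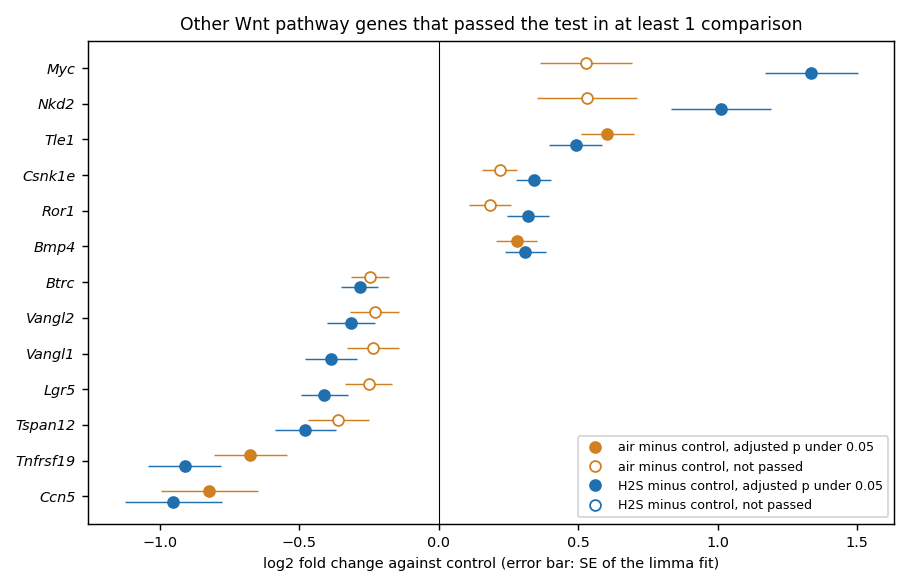
Log2 fold change against control (x axis, error bars are the SE of the limma fit) of the 13 pathway genes outside the 42 that passed in at least 1 comparison (y axis), for air in orange and H2S in blue, filled where the adjusted p was under 0.05. Myc and Nkd2 rose most with H2S, by 1.34 and 1.01, and Tnfrsf19 and Ccn5 fell most.

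Some markers of lung cell types moved with the same groups. The summed intensity of 6 endothelial markers was 25059 to 27862 in controls, 21211 to 23741 with air and 21683 to 23538 with H2S, without overlap with control, and Tek and Kdr passed in both comparisons with Tie1 added in H2S. All 5 B cell markers measured were lower in both, with sums of 2851 to 4763 in controls, 1053 to 2634 with air and 961 to 2039 with H2S. The 8 fibroblast markers had sums of 18074 to 21590, 16556 to 18645 and 17689 to 20640, which overlapped, and none of them passed. All 6 neutrophil markers had a positive change in both comparisons, with sums of 4738 to 9620, 8043 to 11930 and 7405 to 14503, and Retnlg passed in both (1.15 and 1.23 on the log2 scale) and Cxcr2 with H2S. Of 5 alveolar macrophage markers, Mrc1 was higher in both (0.37 and 0.53) and Marco with H2S. The mesothelial gene Lrrn4 was lower in both (-0.63 and -0.48). The other mesothelial markers did not pass, and 3 of the 6 had a positive change with air and 2 with H2S. In the comparison of H2S with control, 1 marker each of smooth muscle (Acta2, -0.35), pericytes (Pdgfrb, -0.39), alveolar type I cells (Akap5, -0.70) and alveolar type II cells (Abca3, -0.31) was lower. The other markers of these lists did not pass, and some went the other way. Positive changes were seen in 2, 3, 2 and 3 of the 6 markers of these lists, in the order given. None of the airway epithelium, T cell or cardiac muscle markers passed. The part of these markers in the changes above was not tested.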

How the data were processed

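Inferior right lung lobe RNA of 15 mice was hybridised to 1-colour Affymetrix GeneChip whole-transcript arrays, 1 array per mouse, and the authors normalised the scans by RMA. The deposited table holds linear intensity values for 28361 rows, and log2 was taken here. Rows were named from the GEO platform annotation: 21780 rows carried 1 symbol, 1617 several and 4964 none, and no column was left unused (0). Background brightness is not part of the table, so detection above background is unknown. No 2 arrays held identical values.

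All 15 arrays entered 1 limma fit (version 3.58.1, R 4.3.3) with the 3 groups and no covariate, and p-values were adjusted by Benjamini-Hochberg over all rows. A gene was called at an adjusted p under 0.05. The methods' thresholds (p of at most 0.005, false discovery rate of at most 10%, at least 1.7-fold) were counted too, from the limma p-values and folds. On simulated data for air minus control with 28361 rows, limma recovered 59% of 1.5-fold and 95% of 2-fold changes with 9 false calls. CyberT recovered 74% and 97% with 64 false calls. In the simulated comparison of H2S with control, where nothing was changed, CyberT made 32 false calls and limma 0. Every member is accounted for. Of the other lists, up to 3 called genes each were named by smallest p, with exceptions stated. Alternatives were CyberT (confidence 15, window of 101 probes), a variance trend, array weights, no dim probes (under the 25th percentile), repeated quantile normalization, mean of a gene's rows, 2-group fits, the number sets as a block or alone, folds of medians, and leaving out each mouse. The members and lists were chosen with earlier results of these data known. The labels do not say that mice of a group came from separate experiments. The p-values of the main fit set each change against the spread between these mice, pooled over the 3 groups.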

Additional observations from a re-analysis of the deposited data

Results flagged for a closer look

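Dixon's test for 1 mouse far from the other 4 of its group marked 9 of 126 groups of member values, where chance gives about 1 in 20. The value given is the gap to the nearest mouse over the range of the group. H2S ventilated mouse 15_20 was the highest for Wnt3a (0.849, 195.34 against 158.08 to 163.20) and for Fzd7 (0.845, 763.41 against 604.13 to 626.45). H2S ventilated mouse 4_8 was the lowest for Lrp6 (0.733, 930.54 against 1058 to 1108) and the highest for Dkk1 (0.745, 136.70 against 116.13 to 121.07). Air ventilated mouse 11_6 was the lowest for Wnt7b (0.849, 107.68 against 150.91 to 160.27) and the highest for Fzd9 (0.767, 204.10 against 171.88 to 178.91). Air ventilated mouse 34_22 was the highest for Wnt7a (0.821, 158.54 against 121.06 to 127.05). H2S ventilated mouse 9_12 was the highest for Fzd9 (0.713, 220.06 against 151.89 to 168.96). Control mouse 12_21 was the highest for Wnt7b (0.72, 152.29 against 114.01 to 123.64). Of these genes only Wnt3a and Wnt7a were called against control.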

How the results depend on the processing

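Every gene called against control kept the sign of its change under each alternative run. The member count with air (7) was 4 when only the 2 groups compared were fitted, 4 in mice numbered 1 to 12 and 0 in mice numbered 20 to 28, and lay between 7 and 10 under the other alternatives. Under CyberT it was 8, without Znrf3 and with Fzd2 and Lrp5. The member count with H2S (8) was 0 in mice 20 to 28 and 6 to 10 otherwise. By the study's thresholds the air count (2) was 0 in mice 20 to 28, and the H2S count (2) was 4 in mice 1 to 12, where Wnt7a and Fzd2 were added, and 0 in mice 20 to 28. Of the other pathway genes, the air count (4) was 8 with array weights and 0 in mice 20 to 28. The H2S count (13) was 7 in mice 1 to 12 and 0 in mice 20 to 28. The H2S minus air count (0) was 1 under CyberT, 1 with array weights and 1 with the number set as a block, in each case Myc. Fits of fewer mice have less power by construction. Leaving out each mouse in turn gave 3 to 8 members with air, 6 to 8 with H2S and 0 to 0 between ventilated groups. By the study's thresholds it gave 2 to 2, 2 to 4 and 0 to 0, and for the other pathway genes 3 to 7, 11 to 14 and 0 to 1. Wnt2, Wnt5a and Sfrp2 passed in all 15 of these fits in both comparisons. With the number set as a block, 8 members passed with air (Fzd2 added) and 10 with H2S (Fzd1 and Frzb added). The share of all rows called under each alternative is not given here, so a changed count may not be particular to the members. No paired analysis was run. The groups share no last label number, but these numbers follow a regular spacing. They are 1, 5, 9, 21 and 25 in controls and 2, 6, 10, 22 and 26 with air. With H2S they are 4, 8, 12, 20 and 28. The main fit holds no term for this spacing. The sources used here do not say that neighbouring numbers mark matched mice. Signal over background is not known for this table, so low intensities such as those of Frzb carry an unknown offset.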
